A study of Mus musculus with 5 samples.

Results

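Oxidative phosphorylation is the last stage of respiration in mitochondria. Complexes I and II take electrons from NADH and succinate, complex III passes them to cytochrome c, and complex IV hands them to oxygen. Complexes I, III and IV pump protons, and complex V (ATP synthase) uses the returning protons to make ATP. Most subunits are encoded in the nucleus and a smaller number in mitochondrial DNA, so the complexes are built from both genomes. Brain endothelial cells are known for their many mitochondria, which have been linked to the transport work of the blood-brain barrier.

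The genes described here are the nuclear-encoded subunits of the 5 complexes. They were taken by symbol: genes named Ndufa, Ndufb, Ndufc, Ndufs or Ndufv for complex I, the Sdh genes for complex II, Cyc1 and the Uqcr genes for complex III, the Cox4 to Cox8 genes for complex IV and the Atp5 genes for complex V, without Ndufa4l2 and the Ndufaf assembly factors. This gave 87 symbols out of 34615 in the data. Placed by name alone, 37 were counted in complex I, 4 in complex II, 9 in complex III, 19 in complex IV and 18 in complex V. Of the 87 symbols, 85 had a mean FPKM (fragments mapped to a gene, divided by its exon length and by the depth of the library) of at least 1 and were tested. The other 2, Cox8b and Cox8c, were listed at 0 in every mouse. The names also take in a few genes that are not known as subunits. Cox4nb, now called Emc8, belongs to a complex of the endoplasmic reticulum membrane, Atp5l-ps1 carries a pseudogene name although it was annotated as protein-coding, and Atp5s and Atp5sl, now called Dmac2l and Dmac2, are not counted among the subunits of ATP synthase.

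Microvascular fragments were isolated from the brains of 3 WT and 2 Ins2-AKITA mice and their RNA was sequenced, 1 library for each animal. All were males on a C57BL6 background and between 26 and 38 weeks old, and the WT animals were littermates. Ins2-AKITA mice are heterozygous for a mutation in the insulin 2 gene that acts in the beta cells of the pancreas and leads to hyperglycemia, so the brain vessels were exposed to it through the blood. The fragments were pulled down with beads against PECAM1 and carry pericytes and astrocyte end-feet along with the endothelium.

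All 8 endothelial markers were above 0 in every mouse, with summed values of 508, 755.5 and 433 FPKM in WT and 469 and 376 FPKM in Ins2-AKITA. The 8 neuron markers were also present, with sums of 872, 793 and 819 FPKM in WT and 799 and 966 FPKM in Ins2-AKITA. The values therefore describe RNA of several cell types, and in such bulk samples fewer cells of a type and less RNA per cell cannot be told apart. The depth, worked out from the steps between low FPKM values, was between 1123972 and 2847453 fragments per mouse, with WT replicate 3 the deepest. Small and ribosomal RNA took 96.7%, 96.6% and 58.0% of the summed FPKM in WT replicates 1 to 3, 89.6% in Ins2-AKITA replicate 1 and 40.6% in Ins2-AKITA replicate 2. For 28 subunit genes with 1 annotated transcript the number of fragments could be worked out too, and its median ran from 23.5 to 73.6 per gene among the mice.

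Many genes of oxidative phosphorylation are known targets of the transcription factors NRF-1 and GABP, a member of the ETS family. RefSeq promoter windows of GRCm38.p6, reaching 250 bases before and 50 after the start, were found for 70 of the 87 genes, 67 by symbol and 3 by an older name. Those without one include Ndufa2, Ndufb9, Ndufs1, Sdhc, Cyc1, Uqcrb, Uqcrc2, Uqcrq, Cox4i1, Cox4i2, Cox4nb, Cox6a2, Cox6c, Cox8c, Atp5a1 and Atp5l-ps1. The letters GCGCA, any base and then GCGC, read on both strands as the NRF-1 motif, were in 17 of these windows (24.3%) and in 5.19% of the windows of all 27025 genes. The letters CCGGAAG, read on both strands as the GABP motif, were in 16 (22.9%) against 9.93% of all genes. The TATA box letters TATAAA were in 7 (10%) against 15.7%. There were 4 genes with both the NRF-1 and the GABP letters, namely Sdhd, Cox6a1, Atp5h and Atp5k. The median level was 67.0 FPKM for genes with the NRF-1 letters and 49.9 FPKM for those without, and their median genotype differences on the log2 scale were 0.16 and 0.14. With the GABP letters the median level was 92.9 FPKM and without them 51.9 FPKM, at genotype differences of 0.05 and 0.16. Letters were matched exactly, so a window without a match says only that these letters were not in it.

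To show what these windows look like, the 180 bases before the start are given for 4 genes, 5′ to 3′ on the strand of the gene, with matched letters in capitals. Cox6a1, the broadly expressed form of a complex IV subunit, holds the NRF-1 letters at -162 to -153 and -117 to -108 and the GABP letters at -16 to -10 (chr5:115348959-115349138, minus strand). Ndufb4, of the membrane arm of complex I, holds the NRF-1 letters at -79 to -70 and -22 to -13 (chr16:37654369-37654548, minus strand). Ndufb7, the gene with the smallest p of all 85, holds the GABP letters at -20 to -14 (chr8:83566578-83566757, plus strand). Cox8b, a heart and muscle form listed at 0 here, holds none of the 3 motifs in this stretch (chr7:140900447-140900626, minus strand).
Cox6a1: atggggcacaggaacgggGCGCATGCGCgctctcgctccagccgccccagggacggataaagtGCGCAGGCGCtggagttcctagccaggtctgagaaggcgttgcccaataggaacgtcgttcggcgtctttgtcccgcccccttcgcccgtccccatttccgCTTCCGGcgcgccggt
Ndufb4: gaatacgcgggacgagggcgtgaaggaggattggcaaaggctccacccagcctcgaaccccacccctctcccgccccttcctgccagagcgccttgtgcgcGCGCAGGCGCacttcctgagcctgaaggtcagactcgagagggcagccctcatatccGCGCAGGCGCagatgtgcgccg
Ndufb7: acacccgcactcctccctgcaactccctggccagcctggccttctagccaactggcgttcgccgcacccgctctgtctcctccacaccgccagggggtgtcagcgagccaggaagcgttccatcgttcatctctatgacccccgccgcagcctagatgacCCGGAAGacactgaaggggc
Cox8b: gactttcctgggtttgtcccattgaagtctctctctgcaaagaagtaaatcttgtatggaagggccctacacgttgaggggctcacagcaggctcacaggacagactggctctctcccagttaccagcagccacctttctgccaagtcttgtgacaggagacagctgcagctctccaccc

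The levels of the 85 genes spanned from 1.19 FPKM for Cox7b2 to 936 FPKM for Atp5b, as means over the 5 mice, with a median of 57.7 FPKM. The median over all symbols tested was 10.1 FPKM. The mean was over 100 FPKM for 24 genes and under 10 FPKM for 7, the pair at 0 included. Atp5b encodes the catalytic beta subunit of the ATP synthase, and it had 1030, 794 and 941 FPKM in WT against 984 and 932 FPKM in Ins2-AKITA, so the groups overlapped. Next in order came Cox8a (635 FPKM), Cox6c (487 FPKM) and Cox4i1 (431 FPKM) of complex IV and Ndufb9 (330 FPKM) of complex I. Neighbours in this order overlapped between mice except that the lowest Atp5b value, 794 FPKM, was above the highest of Cox8a, 746 FPKM. The medians by complex were 51.5 FPKM for complex I, 39.0 for complex II, 89.7 for complex III, 67.2 for complex IV and 68.3 for complex V.

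**Figure D1:**
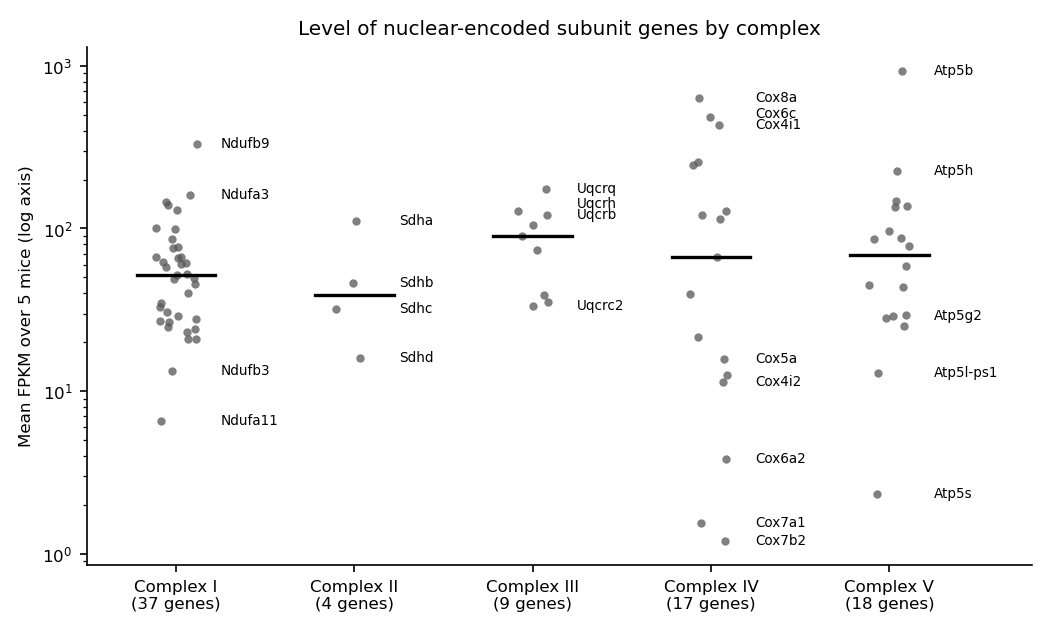
Mean FPKM over the 5 mice of the 85 tested genes by complex, on a log axis. Each point is a gene, the bar is the median of the complex, and selected genes are named. Complex IV has both some of the highest genes, Cox8a, Cox6c and Cox4i1, and the lowest, Cox7b2 at 1.19 FPKM.

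Together the 87 genes took 2.16%, 1.99% and 2.26% of the summed FPKM of nuclear protein-coding genes in WT replicates 1, 2 and 3, and the Ins2-AKITA replicates had 2.16% and 2.47%. Replicate 2 of Ins2-AKITA had the highest share, and replicate 1 stayed within the range of WT. Of this total, complex I held between 28.7% and 29.7% in the 5 mice, complex II between 1.97% and 2.88%, complex III between 9.13% and 10.3%, complex IV between 30.6% and 33.2% and complex V between 24.5% and 28.9%. The mitochondrially encoded subunits took from 75.7% to 79.2% of the FPKM of all subunits of both genomes. For 14 such shares, isoform shares included, an exact permutation test between the genotypes gave a two-sided p of at least 0.2 and an adjusted p of at least 0.969. With 3 mice against 2 this test cannot give a p below 0.1.

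The study asked which genes of the brain microvasculature change in hyperglycemic mice. No subunit gene passed an adjusted p of 0.05 in limma in either direction. Among all 16286 symbols tested, 0% were called higher and 0.0246% lower in Ins2-AKITA. The smallest adjusted p of the 85 genes was 0.816, for Ndufb7, which ranked 72 among all symbols. At an unadjusted p under 0.05 there were 3 genes higher (Cox7a2l, Uqcrq and Ndufc2) against 1.53% of all symbols, and 2 lower (Ndufb7 and Ndufa2) against 2.93%. These small counts depended on single mice. The number higher was 1 without WT replicate 2 or Ins2-AKITA replicate 2 and 7 without WT replicate 3 or Ins2-AKITA replicate 1, and the number lower was 1 without WT replicate 1 or Ins2-AKITA replicate 1 and 4 without Ins2-AKITA replicate 2. The numbers over all 16286 symbols moved too, from 249 higher to 196 without WT replicate 2, 279 without Ins2-AKITA replicate 2, 494 without WT replicate 3 and 320 without Ins2-AKITA replicate 1. Lower were 477 symbols, then 353 without WT replicate 1, 614 without Ins2-AKITA replicate 1 and 453 without Ins2-AKITA replicate 2.

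The log2 fold change on the log2(FPKM + 1) scale, Ins2-AKITA minus WT, ran from -0.98 to 0.95. It was above 0 for 62 of the 85 genes (72.9%) and below 0 for 23, while 46.5% of all symbols were above 0. Without Cox4nb, Atp5l-ps1, Atp5s and Atp5sl it was above 0 for 59 of 81. The median was 0.15, against -0.03 over all symbols and 0.04 over 2688 other protein-coding genes with a mean between 28.3 and 111 FPKM, the middle range of the subunit genes. Both Ins2-AKITA mice were above all WT mice for 17 genes, against 9.24% of all symbols, and below all of them for 7 genes, against 10.3%. No gene had a log2 fold change over 1 in size and 73 were under 0.5, but the 95% interval reached 0.57 to either side for the median gene and between 0.40 and 2.42 over all of them. Differences of that size would not have been detectable for many of these genes. In simulated data, 38.0% of the genes given a log2 fold change of 2 were recovered.

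**Figure D2:**
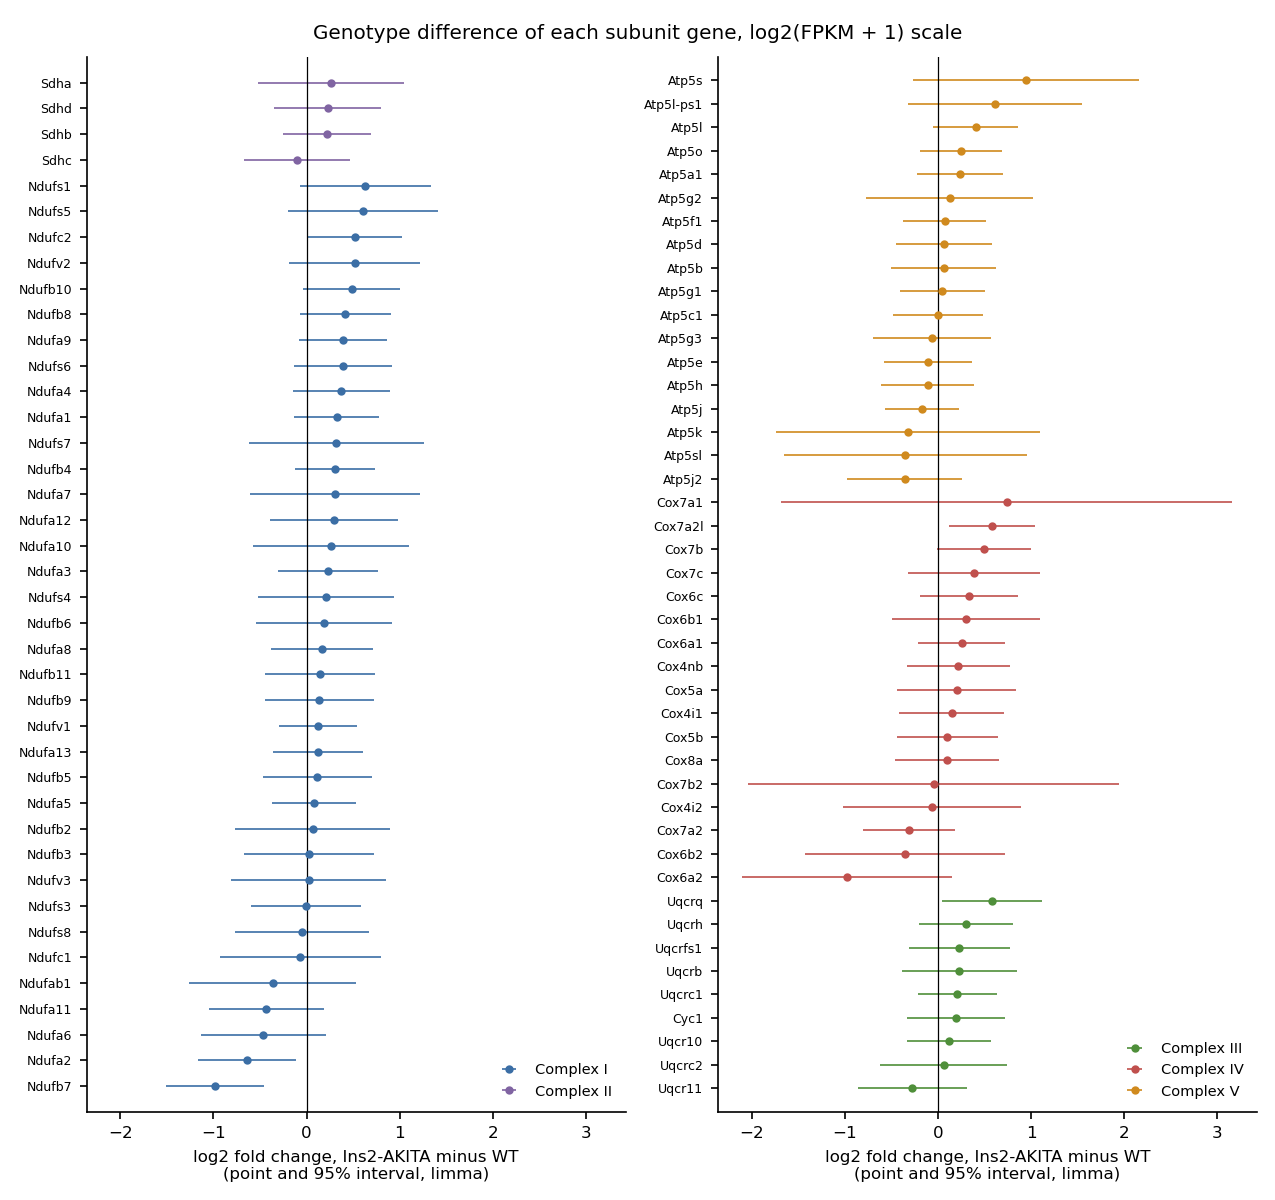
Log2 fold change of 84 of the 85 genes, Ins2-AKITA minus WT, on the log2(FPKM + 1) scale, with its 95% interval from limma and colours for the complexes. Nearly all intervals cross 0, and the 5 that do not belong to Ndufb7, Ndufa2, Ndufc2, Uqcrq and Cox7a2l.

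Taken over all 85 genes, the direction rested on 1 animal. Measured against the mean of the WT mice, the median of the 85 genes was 0.01, -0.10 and 0.10 on the log2 scale in WT replicates 1, 2 and 3, 0.01 in Ins2-AKITA replicate 1 and 0.33 in Ins2-AKITA replicate 2. Ins2-AKITA replicate 2 had the highest value of the 5 mice for 46 genes, and Ins2-AKITA replicate 1 for 15, while over all symbols these mice were highest for 22.4% and 16.8%. When each was set against the WT range, Ins2-AKITA replicate 2 was above it for 53 genes and below it for 8, whereas Ins2-AKITA replicate 1 was above it for 25 and below it for 23. The counts against the WT range were not made over all symbols, so no background share stands beside them. Without Ins2-AKITA replicate 2, 43 of the 85 genes had a log2 fold change above 0, against 49.2% of all symbols, and the median was 0.01. Without Ins2-AKITA replicate 1, 68 were above 0, against 46.3% of all symbols, and the median was 0.33. WT replicate 2 stood at the other end, with the lowest value of the 5 mice for 37 genes, against 17.6% of all symbols. Ins2-AKITA replicate 2 was also the library with the lowest share of small and ribosomal RNA (40.6%) and the highest FPKM sum of nuclear protein-coding genes, 391008 against 362796 to 375586 in the other 4. The part of this in the subunit values was not tested.

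**Figure D3:**
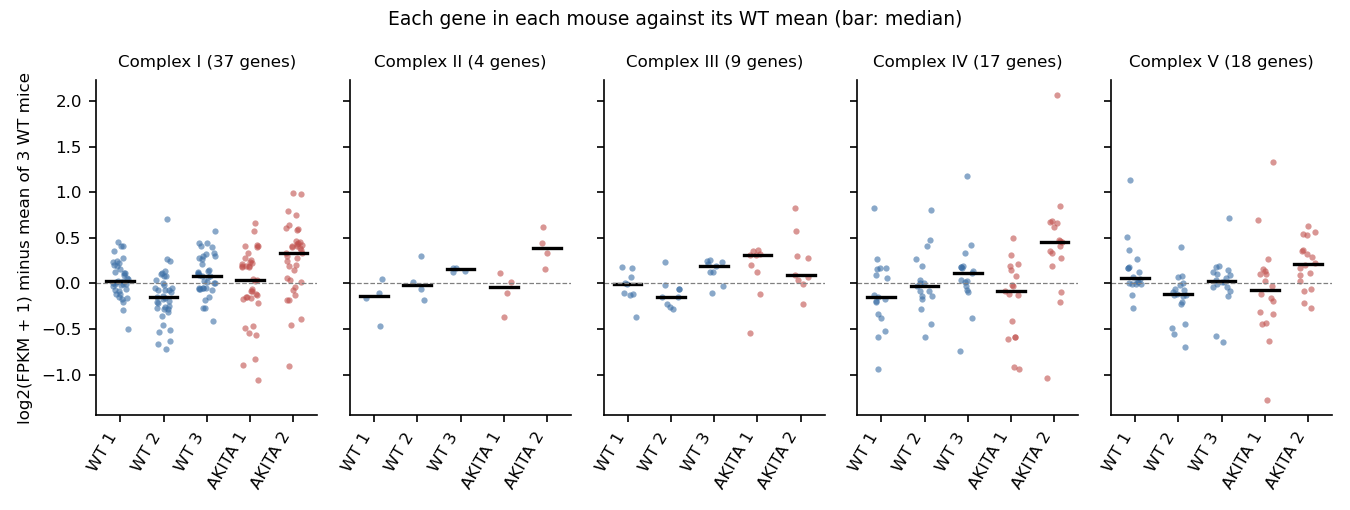
Each gene in each mouse as log2(FPKM + 1) minus the mean of the 3 WT mice, by complex. Points are genes, bars are medians. Ins2-AKITA replicate 2 has the highest median in complexes I, II, IV and V (0.33, 0.38, 0.46 and 0.21), and Ins2-AKITA replicate 1 has it in complex III (0.31).

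Markers of other cells also stood at different levels in the mice. The 6 astrocyte markers summed to 1494, 1958 and 2198 FPKM in WT and to 2609 and 2990 FPKM in Ins2-AKITA, and all 6 had a log2 fold change above 0, with a median of 0.57. Against the WT mean their median was 0.44 in Ins2-AKITA replicate 1 and 0.69 in replicate 2. Of the 8 pericyte and smooth muscle markers 7 were below 0, with a median of -0.55 and sums of 424.5, 481 and 408 FPKM in WT and 373 and 292 FPKM in Ins2-AKITA. Their medians by mouse were -0.35 and -0.77 in Ins2-AKITA replicates 1 and 2. Within this list Pdgfrb and Rgs5 hardly differed, with log2 fold changes of -0.02 (SE 0.24) and 0.01 (SE 0.21). The paper detected no difference in these genes by quantitative PCR and reports increased pericyte coverage. Kcnj8, Abcc9, Acta2, Tagln, Myh11 and Vtn had log2 fold changes from -0.79 to -0.47. Of the 8 endothelial markers 7 were below 0 as well, with a median of -0.39. The median of the neuron markers was 0.37 above the WT mean in Ins2-AKITA replicate 2 and between -0.08 and -0.02 in the other 4 mice. The 4 erythroid markers had a median of -1.02, and those of oligodendrocytes, microglia and ependyma had medians of -0.03, 0.16 and -0.03. None of these marker genes passed an adjusted p of 0.05, and no astrocyte, endothelial, pericyte or neuron marker was at 0 in any mouse. The part of cell composition in the values of the subunit genes was not tested.

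Complex I takes electrons from NADH through a flavin and a chain of iron-sulfur clusters held by its core subunits, and accessory subunits surround that core. The median log2 fold change of its 37 genes was 0.16, with 28 above 0 and 9 below. It was 0.04 without Ins2-AKITA replicate 2, 0.07 without WT replicate 2 and 0.33 without Ins2-AKITA replicate 1. The 7 nuclear core genes had a median of 0.13 with 4 above 0 and 3 below. The other 30, counted as accessory by name alone, had one of 0.17 with 24 above 0 and 6 below. Both Ins2-AKITA mice were above all WT mice for 8 genes with these names (Ndufa1, Ndufa4, Ndufa9, Ndufb4, Ndufb8, Ndufb10, Ndufc2 and Ndufs6). Ndufa4 was placed in complex I by its name only. Both were below all WT mice for 4 genes, among them Ndufa2, Ndufa11 and Ndufb7. Over all symbols, both were above all WT mice for 9.24% and below all of them for 10.3%.

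Ndufb7, an accessory subunit of the membrane arm on the side of the intermembrane space (NCBIM37 chr8:86090570-86095525, plus strand), had the lowest fold change of complex I. The WT mice had 42.9, 41.3 and 31.5 FPKM and the Ins2-AKITA mice 17.8 and 20 FPKM. The groups did not overlap, and the WT mean of 38.6 ± 6.15 (SD, n = 3) was 2.04 times the Ins2-AKITA mean of 18.9 ± 1.55 (SD, n = 2). The log2 fold change was -0.98 with an SE of 0.22 (limma p = 0.00361, adjusted p = 0.816, exact permutation p = 0.1).

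Ndufa2, an accessory subunit of the arm that reaches into the matrix, lies on chromosome 18 and overlaps Tmco6. It had 95.5, 74.1 and 97.1 FPKM in WT mice against 49.4 and 64.3 FPKM in Ins2-AKITA, from 17.0 to 84.1 fragments per mouse. Both Ins2-AKITA mice were below all WT mice, with a log2 fold change of -0.64 (SE 0.22, limma adjusted p = 0.896). The lowest complex I gene by level, Ndufa11, was similarly even within groups, with 7.38, 7.46 and 7.49 FPKM in WT and 5.10 and 5.43 FPKM in Ins2-AKITA. These values came from 20.9, 23.9, 52.0, 14.0 and 16.9 fragments, and the log2 fold change was -0.43 (SE 0.25, limma adjusted p = 0.896).

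Ndufc2, a small subunit of the membrane arm (NCBIM37 chr7:104548513-104556312, plus strand, overlapping Gm16053), had 54.0, 43.3 and 60.8 FPKM in WT and 78.2 and 72.4 FPKM in Ins2-AKITA. The groups did not overlap and the log2 fold change was 0.52 (SE 0.21, limma adjusted p = 0.896). The 2 largest fold changes of complex I came from genes whose groups did overlap. Ndufs1, the largest core subunit and a carrier of iron-sulfur clusters, had 21.1, 19.9 and 28.8 FPKM in WT and 28.0 and 46.4 FPKM in Ins2-AKITA, with a log2 fold change of 0.63 (SE 0.29). Ndufs5 had 114, 75.1 and 131 FPKM in WT and 121 and 208 FPKM in Ins2-AKITA, with a log2 fold change of 0.61 (SE 0.33). In both genes only Ins2-AKITA replicate 2 was above the WT range.

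The most abundant complex I genes overlapped between the genotypes. Ndufb9 was at 340, 270 and 337 FPKM in WT and 287 and 414 FPKM in Ins2-AKITA, and Ndufa3 at 149, 123 and 182 FPKM against 170 and 182 FPKM. Ndufv1, which binds the flavin, stayed between 54.4 and 66.6 FPKM in the 5 mice.

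Complex II is succinate dehydrogenase, the only complex without a mitochondrially encoded subunit and also an enzyme of the tricarboxylic acid cycle. Its median log2 fold change was 0.22, with 3 of 4 genes above 0. Sdha, the flavoprotein, had 71.9, 123 and 112 FPKM in WT and 93.0 and 154 FPKM in Ins2-AKITA. Sdhb, the iron-sulfur subunit, had 44.8, 38.0 and 47.2 FPKM against 46.7 and 54.5 FPKM. The membrane anchors were lower, with 29.0, 33.0 and 35.9 FPKM against 24.98 and 36.5 FPKM for Sdhc and 13.7, 14.3 and 16.9 FPKM against 15.0 and 20.6 FPKM for Sdhd. All 4 genes were highest in Ins2-AKITA replicate 2 and overlapped between genotypes. The log2 fold changes were 0.26 (SE 0.32), 0.22 (SE 0.19), -0.10 (SE 0.23) and 0.23 (SE 0.24) for Sdha, Sdhb, Sdhc and Sdhd. Without Ins2-AKITA replicate 2 the median of the complex was -0.04.

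Complex III carries electrons from ubiquinol to cytochrome c. It had 8 of 9 genes above 0, with a median log2 fold change of 0.21, and was the 1 complex in which Ins2-AKITA replicate 1 lay further from WT than replicate 2, at medians of 0.31 and 0.09. Ins2-AKITA replicate 1 had the highest value of the 5 mice for 5 of the 9 genes. Without Ins2-AKITA replicate 1 the median was 0.09 and without replicate 2 it was 0.31.

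Uqcrq, a small subunit of the complex (NCBIM37 chr11:53241424-53244333, minus strand), had 163, 139 and 135 FPKM in WT and 182 and 259 FPKM in Ins2-AKITA. Both Ins2-AKITA mice were above all WT mice, and the log2 fold change was 0.58 (SE 0.22, limma adjusted p = 0.896). Uqcrh, which takes part in the contact between cytochrome c1 and cytochrome c, had 122, 95.5 and 135 FPKM against 144 and 143 FPKM, a difference of 0.30 (SE 0.21). The core protein gene Uqcrc1 also had both Ins2-AKITA mice on top, at 92.0, 97.7 and 107.6 FPKM against 108.3 and 120.5 FPKM.

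Cyc1, which encodes cytochrome c1, had 32.7, 28.1 and 38.8 FPKM in WT and 41.2 and 34.6 FPKM in Ins2-AKITA, with a log2 fold change of 0.19 (SE 0.22). The other core protein gene, Uqcrc2, overlapped widely at 24.6, 37.9 and 35.1 FPKM against 41.1 and 27.2 FPKM. Uqcr11 was the 1 gene of the complex below 0, at 88.0, 86.2 and 114 FPKM against 65.0 and 94.7 FPKM and a log2 fold change of -0.28 (SE 0.24).

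Complex IV, cytochrome c oxidase, has several nuclear subunits that exist as forms for different tissues. The median of its 17 tested genes was 0.20 on the log2 scale, with 12 above 0 and 5 below. Ins2-AKITA replicate 2 was the highest mouse for 13 of them and Ins2-AKITA replicate 1 for none. The median was 0.46 without Ins2-AKITA replicate 1 and -0.08 without replicate 2.

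Cox7a2l, also called SCAF1 and known as a factor that joins complexes III and IV into supercomplexes (NCBIM37 chr17:83901259-83913673, minus strand), had 49.3, 55.9 and 63.0 FPKM in WT and 79.1 and 88.8 FPKM in Ins2-AKITA. The groups did not overlap, and the Ins2-AKITA mean of 83.9 ± 6.86 (SD, n = 2) was 1.497 times the WT mean of 56.1 ± 6.87 (SD, n = 3). The log2 fold change was 0.58 with an SE of 0.19 (limma p = 0.0216, adjusted p = 0.896, exact permutation p = 0.1). Its relative Cox7a2, the broadly expressed form of subunit 7a, was lower in both Ins2-AKITA mice than in any WT mouse, at 37.3, 42.9 and 49.3 FPKM against 31.9 and 37.0 FPKM, with a log2 fold change of -0.31 (SE 0.20, limma adjusted p = 0.896). Cox7b had 84.7, 100.2 and 111 FPKM in WT and 122 and 157 FPKM in Ins2-AKITA, a difference of 0.49 (SE 0.21, limma adjusted p = 0.896).

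**Figure D4:**
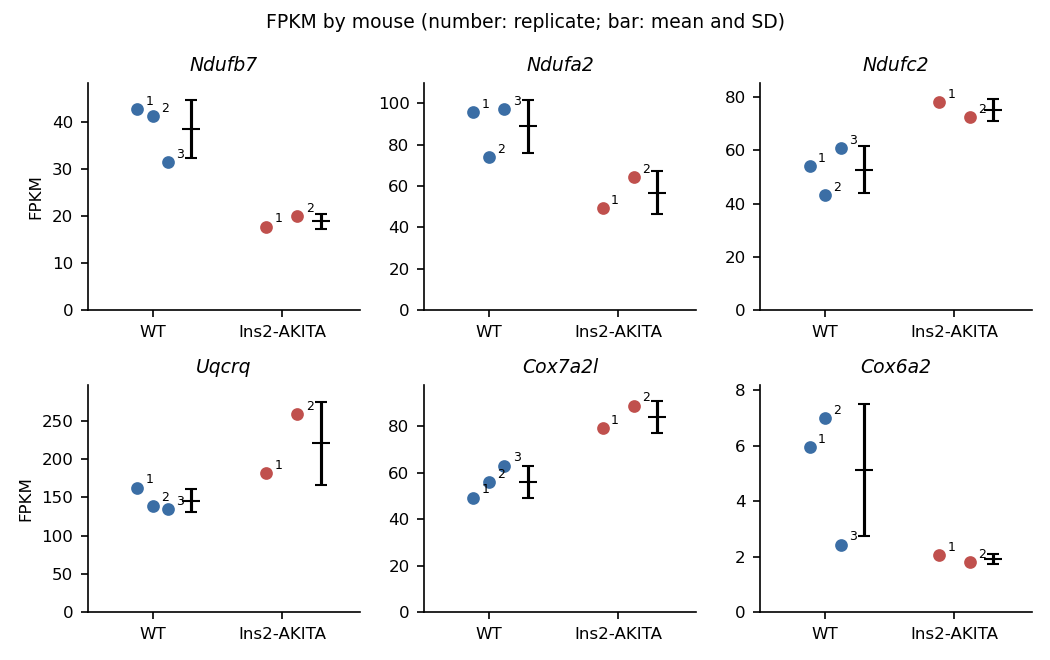
FPKM by mouse, with the replicate number beside each point, for the 5 genes at an unadjusted limma p under 0.05 and for Cox6a2. The bar beside the points is the mean with its SD. In all 6 panels the 2 Ins2-AKITA mice lie outside the range of the 3 WT mice, and Cox6a2 is near 2 FPKM in Ins2-AKITA, which is the value of 1 fragment.

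Of the 3 most abundant subunits of complex IV, Cox8a and Cox4i1 overlapped between the genotypes and Cox6c did not. Cox8a had 692, 557 and 601 FPKM in WT and 580 and 746 FPKM in Ins2-AKITA, and Cox4i1 had 439, 373 and 422 FPKM against 379 and 544 FPKM. Cox6c had 396, 430 and 497 FPKM against 501 and 609 FPKM, with both Ins2-AKITA mice above WT and a log2 fold change of 0.33 (SE 0.22). Cox5a, which with Cox4 forms an early step in the assembly of the enzyme, was listed far lower, between 11.1 and 17.9 FPKM, from 6 to 21.1 fragments.

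The forms known from heart and skeletal muscle, lung or testis were low or at 0. Cox8b and Cox8c, forms of muscle and testis, were listed at 0 in all 5 mice. For Cox8c, 3 fragments would have given between 4.197 and 10.5 FPKM depending on the mouse, and this floor covers counting error only. Cox7a1, the muscle form of subunit 7a, was listed at 0, 0 and 2.39 FPKM in WT and 0 and 5.28 FPKM in Ins2-AKITA, and Cox7b2 never exceeded 1 fragment. Cox6a2, the muscle form of subunit 6a, had 5.95, 6.98 and 2.44 FPKM in WT and 2.05 and 1.81 FPKM in Ins2-AKITA, which stand for 3, 4, 3, 1 and 1 fragments. Its log2 fold change of -0.98 (SE 0.46, limma adjusted p = 0.896) therefore rests on 12 fragments in all, and Itgad overlaps the gene.

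Within each pair of forms the broad one dominated. Cox4i2, the form known from lung and from oxygen-sensing vascular cells, took between 1.83% and 3.88% of the summed FPKM of Cox4i1 and Cox4i2, at 8.55, 15.1 and 10.5 FPKM in WT and 7.07 and 15.6 FPKM in Ins2-AKITA. Cox6a2 took between 0.616% and 3.14% of its pair with Cox6a1, which had 257, 216 and 214 FPKM in WT and 253 and 292 FPKM in Ins2-AKITA. Cox6b2, known from testis, took 23.0% of its pair with Cox6b1 in WT replicate 1 and between 6.32% and 6.71% in the other 4 mice. It had 23.6, 9.23 and 9.71 FPKM in WT mice against 8.14 and 12 FPKM in Ins2-AKITA, while Cox6b1 was lowest in that same WT replicate 1, at 79.1, 131 and 144 FPKM in WT and 113 and 176 FPKM in Ins2-AKITA. The Cox6b2 value of WT replicate 1 came from 9 fragments, and without that mouse the log2 fold change went from -0.35 to 0.06.

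The median difference of complex V was 0.06, with 11 of 18 genes above 0. The 5 genes of the F1 head, which makes ATP, had a median of 0.06, and the 10 genes of the stalk and the membrane part one of -0.01. No gene of the complex reached an unadjusted p under 0.05. Both Ins2-AKITA mice were above all WT mice for Atp5l, Atp5o and Atp5s and below all of them for Atp5j, which overlaps Gabpa, the gene of the DNA-binding subunit of GABP. Over all symbols, the shares above and below were 9.24% and 10.3%. The median of the complex was -0.08 without Ins2-AKITA replicate 2, -0.05 without WT replicate 2, 0.13 without WT replicate 1 and 0.21 without Ins2-AKITA replicate 1.

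The ring that turns with the proton flow is built from 1 protein made by 3 genes, which differ in the part that is cut off on import. Atp5g1 had 28.8, 26.6 and 28.2 FPKM in WT and 31.2 and 26.6 FPKM in Ins2-AKITA, and Atp5g3 had 45.2, 42.5 and 48.4 FPKM against 33.1 and 56.7 FPKM. Atp5g2 had 38.6, 16.1 and 30.9 FPKM against 27.3 and 31.6 FPKM. Of the FPKM of the 3 genes, Atp5g3 took the most in every mouse, between 36.1% and 49.9%, and the exact permutation p between genotypes was at least 0.7 for the 3 shares.

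Atp5h, of the peripheral stalk, was the second most abundant gene of the complex at 234, 222 and 242 FPKM in WT and 184 and 252 FPKM in Ins2-AKITA. Atp5j2, of the membrane part, had 56.9, 40.1 and 45.8 FPKM against 30.1 and 44.4 FPKM, the lowest log2 fold change of the complex at -0.36 (SE 0.25). The highest belonged to Atp5s, at 2.04, 0.601 and 1.67 FPKM in WT and 4.93 and 2.47 FPKM in Ins2-AKITA (log2 fold change 0.95, SE 0.50, limma adjusted p = 0.896), from 1 to 7 fragments per mouse. Atp5l-ps1 had 8.22, 7.20 and 17.4 FPKM against 17.0 and 15.2 FPKM, and 6 near-identical copies of it lie elsewhere in the genome. Atp5sl was at 55.0 FPKM in WT replicate 1 and between 15.4 and 20.3 FPKM in the other 4 mice.

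Some of these values are uncertain for reasons of sequence. For 22 of the 87 genes the coding sequence had at least 1 copy elsewhere in NCBIM37 with at least 95% identity over at least 80% of its length, with 8 copies for Atp5l and 4 each for Cox7c and Atp5h, and reads could have been split between gene and copies. Another gene overlapped 27 of them, and the strand setting of the counting was not given in the sources used here, so reads of overlapping genes may not be told apart. The genes were also short, with a median exon length of 1237 nt against 2735.5 nt for protein-coding genes. None of the 5 genes at an unadjusted p under 0.05 had such a copy.

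The subunits made from mitochondrial DNA join the nuclear ones in complexes I, III, IV and V. Their median log2 fold change was 0.12, with 10 of 13 genes above 0 and none at an unadjusted p under 0.05. The highest of them, mt-Co1, the catalytic subunit of complex IV, had 4453, 4877 and 4282 FPKM in WT and 5090 and 5664 FPKM in Ins2-AKITA, with a log2 fold change of 0.25 (SE 0.34). By mouse the median against WT was 0.05 in Ins2-AKITA replicate 1 and 0.20 in replicate 2.

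Genes that work beside the complexes also passed no adjusted threshold. The 9 complex I assembly factors had a median of 0.42 with 6 above 0, the 12 complex IV assembly factors one of 0.02 with 7 above 0, and the 8 factors for complexes II, III and V one of 0.24 with 5 above 0. By mouse these medians were 0.20, 0.12 and -0.08 in Ins2-AKITA replicate 1 and 0.61, 0.09 and 0.55 in replicate 2, so the last of the lists was above the WT mean in 1 mouse only. The tricarboxylic acid cycle had a median of 0.12 with 8 of 13 genes above 0, but stood at 0.00 in Ins2-AKITA replicate 1 and 0.28 in replicate 2. Among 8 electron carriers and ATP export proteins 7 were above 0, with a median of 0.25, and in the same order stood at 0.10 and 0.37. At an unadjusted p under 0.05 that list had 1 gene higher and 0 lower, against 1.53% and 2.93% of all symbols. This gene was Slc25a3, the phosphate carrier that feeds ATP synthase. It had 58.7, 52.2 and 62.6 FPKM in WT and 88.7 and 88.5 FPKM in Ins2-AKITA, with a log2 fold change of 0.61 (SE 0.18, limma adjusted p = 0.896).

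The 13 regulators of mitochondrial biogenesis had a median of -0.18, with 6 above 0 and 7 below. At an unadjusted p under 0.05, 2 were higher and 0 lower, against 1.53% and 2.93% of all symbols. Ppargc1a, the coactivator PGC-1 alpha, had 27.1, 28.7 and 22.9 FPKM in WT and 47.3 and 36.1 FPKM in Ins2-AKITA, a log2 fold change of 0.64 (SE 0.22, limma adjusted p = 0.896). Tfb2m, a factor that starts transcription of mitochondrial DNA, had 7.85, 7.84 and 8.90 FPKM against 13.4 and 15.9 FPKM, a log2 fold change of 0.77 (SE 0.23, limma adjusted p = 0.896). Nrf1, whose motif was searched above, had 32.4, 17.9 and 21.7 FPKM against 20.8 and 13.4 FPKM, and Gabpa had 15.5, 20.2 and 11.5 FPKM against 14.3 and 17.8 FPKM. Both overlapped between genotypes.

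Ribosomal protein genes had a median level of 232 FPKM for the cytosolic and 13.3 FPKM for the mitochondrial ribosome, on either side of the 57.7 FPKM of the subunits. For the 82 tested genes of the cytosolic ribosome the median was 0.14 with 62 above 0, next to 0.15 and 62 of 85 for the subunits. By mouse they stood at -0.04 in Ins2-AKITA replicate 1 and 0.32 in replicate 2, against 0.01 and 0.33 for the subunits. The 76 tested genes of the mitochondrial ribosome had a median of -0.12 with 35 above 0, and stood at -0.09 and -0.03 in the Ins2-AKITA mice. Whether the subunits and the other lists differ was not tested.

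**Figure D5:**
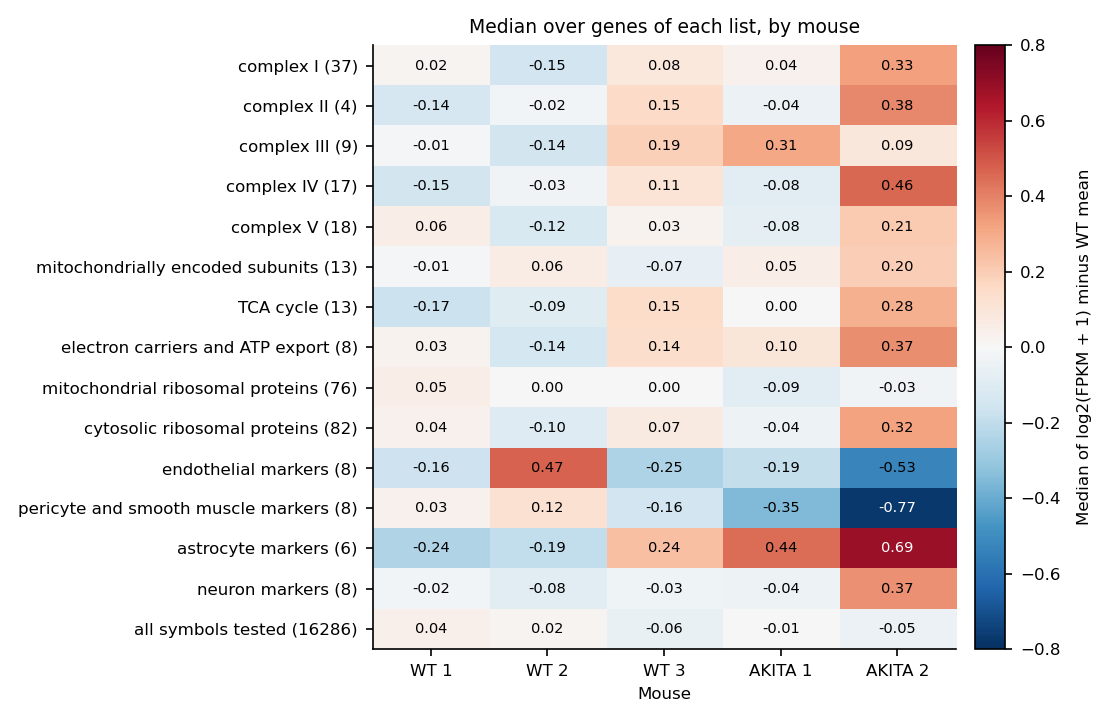
Median over the genes of each list of log2(FPKM + 1) minus the mean of the 3 WT mice, by mouse, with the number of tested genes in parentheses. The column of Ins2-AKITA replicate 2 is positive for the 5 complexes, the cytosolic ribosomal proteins (0.32), the neuron markers (0.37) and the astrocyte markers (0.69), and negative for the endothelial (-0.53) and the pericyte and smooth muscle markers (-0.77).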

How the data were processed

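RNA of 3 WT and 2 Ins2-AKITA mice was sequenced from rRNA-depleted, stranded total RNA libraries, 1 per mouse. The authors mapped the reads to NCBIM37 with TopHat2 2.0.4, removed duplicates with Picard 1.92, tested with Cufflinks 2.2.1 and deposited 1 FPKM value per Ensembl gene and mouse. The program behind the single-mouse values and the Ensembl release are not given in the sources used here. Removing duplicates can lower the values of abundant short genes.

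GENCODE vM1, which annotates NCBIM37, held 37197 of the 37982 identifiers, and rows sharing a symbol were summed. Ndufb8 has 2 such rows. A symbol needed a mean FPKM of 1 or more and was tested on log2(FPKM + 1), which understates changes of low genes, with limma 3.58.1 in R 4.3.3 (eBayes with a trend, two-sided, genotype only, Benjamini-Hochberg adjustment over 16286 symbols). Exact permutation tests compared group means over the 10 splits of the mice. Depth was estimated from low FPKM values of genes with 1 transcript, for which 97.6% to 98.0% of values fell within 0.05 of a whole number of fragments. The fit was tested on simulated data, in 20 simulations of 16286 genes. Of 200 genes given a log2 fold change of 2, it recovered 38.0%. A gene that did not pass may therefore still differ by that much. Copies were searched with BLAST 2.17.0, and Python 3.11.15 was used otherwise.

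The genes, the other lists and the tests were chosen with earlier results of these data known. Genes named were the 2 most abundant and the 2 highest and 2 lowest by fold change of each complex, those at an unadjusted p under 0.05, complex II, Cyc1 and the tissue forms. Others, named because their groups did not overlap or as examples, were picked after their values were seen. The labels name littermates but no pairs, so the mice were treated as unpaired. The limma p-values set the genotype difference against the spread between these mice, with the variance of each gene drawn toward that of genes of similar level. Alternatives were another pseudocount, other filters, TPM, 3 other scalings, a constant prior, the highest row per symbol, protein-coding genes only, a replicate block and each mouse left out. Values of 1 gene are not reported here on their own, and the plot of fold changes leaves it out.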

Additional observations from a re-analysis of the deposited data

How the results depend on the processing

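With 3 mice against 2 and at most 2847453 fragments in a mouse, low genes rested on few fragments. No subunit gene passed the adjusted p threshold under any alternative. The count of genes above 0 was chosen for comparison after the data had been seen. It was between 57 and 64 of 85 without each WT mouse, beside 44.4% to 48.3% of all symbols. Without Ins2-AKITA replicate 1 it was 68, beside 46.3%, and without Ins2-AKITA replicate 2 it was 43, beside 49.2%. Of the 81 genes left without Cox4nb, Atp5l-ps1, Atp5s and Atp5sl, 59 were above 0. Pseudocount, filters, median-ratio scaling, the common protein-coding sum and quantile normalization left the count above 0 between 59 and 63.

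TPM, which gives each mouse the same FPKM sum, moved the median of all symbols from -0.03 to 1.07, in mice whose small and ribosomal RNA took very different shares of that sum. The median log2 fold change was then 1.67 over the 85 genes and 1.70, 1.62, 1.72, 1.80 and 1.56 for complexes I to V. All 85 were above 0, as were 95.1% of all symbols. At an unadjusted p under 0.05, 0 were lower, beside 105 of all 16286 symbols. The median level was 57.7 FPKM for the subunit genes and 10.1 FPKM for all symbols, and genes matched by level were not compared under TPM. Taken relative to the shift of all symbols, the log2 fold change under TPM was 0.29 for Sdhc, 0.26 for Uqcr11, -0.28 for Cox7a1, 0.48 for Atp5h, -0.11 for Atp5s, 0.12 for Atp5j2, 0.011 for Atp5sl, 0.077 for Cox4i2, 0.13 for Cox7a2 and 0.39 for Atp5g3, each with the sign opposite to that in the report. The same shift was subtracted for every gene, but the move under TPM differed between genes. On that relative scale Ndufb9, at 330 FPKM, went from 0.14 to 0.74, and Ndufs1, at 28.8 FPKM, from 0.63 to 0.89. The opposite signs are therefore not read as results about single genes. Quantile normalization turned Cox7b2 to 0.081.

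At an unadjusted p under 0.05, a constant prior gave 0 genes higher and 1 lower, beside 234 and 474 of all 16286 symbols, and a fit on protein-coding symbols gave 5 higher, beside 242 of 13931. With each mouse left out the numbers were 1 to 7 higher and 1 to 4 lower, beside 196 to 494 and 311 to 908 of all symbols. An arm left with 1 mouse was assumed to vary like the other. The cause of these moves was not tested.

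With each mouse left out, the median log2 fold change ran from 0.013 to 0.33 over all genes, from 0.037 to 0.33 in complex I, from -0.044 to 0.38 in complex II, from -0.082 to 0.46 in complex IV and from -0.075 to 0.21 in complex V. The sign also turned in some genes, whose log2 fold changes ran from -0.13 to 0.40 for Ndufb9, from -0.10 to 0.62 for Sdha, from -0.37 to 0.16 for Sdhc, from -0.23 to 0.35 for Uqcrc2, from -0.082 to 0.28 for Cox8a, from -0.59 to 2.06 for Cox7a1, from -0.61 to 0.058 for Cox6b2, from -0.040 to 0.15 for Atp5b, from -0.34 to 0.11 for Atp5h, from -0.67 to 0.21 for Atp5sl, from -0.11 to 0.41 for Cox4i1, from -0.58 to 0.46 for Cox4i2, from -0.014 to 0.61 for Cox6b1, from -0.94 to 0.85 for Cox7b2, from -0.065 to 0.16 for Atp5g1, from -0.23 to 0.38 for Atp5g2 and from -0.44 to 0.32 for Atp5g3. The signs of Ndufb7, Ndufa2, Ndufc2, Uqcrq and Cox7a2l were the same under every alternative run when TPM is taken relative to the shift of all symbols. Without that subtraction Ndufb7 and Ndufa2 were above 0 under TPM like all 85.

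The labels number the mice of both genotypes but name no pairs, so the numbers were not taken as pairs. The deviations of WT and Ins2-AKITA mice with the same number correlated at 0.05 and -0.03 across symbols. The deviations of 2 Ins2-AKITA mice from their mean are mirror images of each other, so these correlations cannot decide whether the numbers mark pairs. With a replicate block, 4 genes were higher and 2 lower at an unadjusted p under 0.05, beside 440 and 809 of all 16286 symbols. The median was 0.19, 63 of 85 genes were above 0 and Cox7b2 turned to 0.020. No Ins2-AKITA mouse shares the number of WT replicate 3, so these fold changes are the same as those without WT replicate 3.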
